A study of Homo sapiens with 6 samples.

Results

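Chromosomes 6 and 16 of LNCaP, an established prostate cancer cell line, contact each other over a stretch of each chromosome as if they were joined end to end. The stretches described here are 38 to 46 Mb of chromosome 6 and 68 to 77 Mb of chromosome 16 (hg19). They hold 425 bins of 40 kb, 200 on chromosome 6 and 225 on chromosome 16, of the 64935 bins of all chromosomes. Of these, 420 had enough coverage to be used, 198 on chromosome 6 and 222 on chromosome 16. The members were chosen by the number of contacts between the stretches in these same maps, so the excess of those contacts, the breakpoint and what is read from them are given as a description, with no test.

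The contacts were measured by Hi-C, in which cross-linked chromatin is cut (here with BglII), its ends are ligated, and read pairs are counted between genome bins. Both groups were LNCaP cells transfected with 20 nM of a pool of siRNAs and collected 144 h after the first transfection, with a repeat transfection in between. The control siRNA group received a non-targeting pool (2 libraries), and the CTCF siRNA group a pool against CTCF (4 libraries, some of them labelled as further versions of a replicate). Per the methods the replicates of a condition had been pooled, and the labels tie all libraries of a condition to 1 map, but whether the further versions are technical repeats and whether each entered the map is not stated. With 1 map per condition, a difference between the maps could not be set against the spread between replicates, and every interval below covers counting error only. LNCaP is a cultured line with many rearranged chromosomes, and the number of copies of each chromosome was not measured here.

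A translocation joins pieces of chromosomes that are normally separate. Contacts in Hi-C fall with distance along a chromosome, so a join shows as a corner of dense contacts between chromosomes that fades away from the breakpoint. A reciprocal exchange, in which both chromosomes swap ends, fills a pair of facing quadrants around the breakpoint, while an unbalanced join fills a single quadrant. CTCF binds DNA at many boundaries of topologically associating domains (TADs), stretches that contact themselves more often than their neighbours.

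The control map held 26174660 read pairs, 52.2% of them within a chromosome (cis), and the CTCF siRNA map held 87657899, 64.2% of them cis. Cis contacts per member bin had a median of 276 in control (29 to 1238) and of 1443.5 in CTCF siRNA (225 to 7706). The medians over usable bins of all chromosomes were 367 and 1258, so the member bins lay below that median in control and above it in CTCF siRNA.

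The breakpoint fell in the same pair of 40 kb bins in both maps, chr6:42160001-42200000 and chr16:72080001-72120000. It was located as the corner whose 4 quadrants best accounted for the contacts. The next best pair of bins was 29.3 log-likelihood units lower in control and 163 lower in CTCF siRNA. The corner of each joined quadrant was then moved while the other was held at these bins, so the positions are not separate estimates. Both stayed at the same bins. The lower one did so narrowly, by 0.347 units in control and 3.32 in CTCF siRNA, against 40.8 and 222 for the upper one. In control the lower quadrant thus did not settle the bins by itself.

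BglII cuts at AGATCT, and a ligation can be recorded only at such sites. The chromosome 6 breakpoint bin holds 5 sites and the chromosome 16 bin 7, below the median of 11 per bin. The sequences below show where in these bins a contact between the chromosomes can be read: the outermost sites of the chromosome 6 bin and the second and the last site of the chromosome 16 bin, with 60 bases of the plus strand of GRCh37 (hg19) each and the site in capitals. The first chromosome 6 site is intergenic, the last lies in an intron of TRERF1, and those of chromosome 16 lie in introns of HPR and TXNL4B and of TXNL4B.
chr6:42172421-42172480: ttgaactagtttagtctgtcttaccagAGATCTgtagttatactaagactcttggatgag
chr6:42196420-42196479: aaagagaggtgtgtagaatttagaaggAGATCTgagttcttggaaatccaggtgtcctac
chr16:72097568-72097627: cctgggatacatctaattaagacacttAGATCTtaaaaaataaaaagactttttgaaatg
chr16:72116841-72116900: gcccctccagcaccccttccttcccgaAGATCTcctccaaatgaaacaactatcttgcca
The first 33 bases of the HPR window, up to the end of the site, match those of the first site of the chromosome 16 bin, in HP and 8.60 kb away, at 32 positions. HP and HPR are near-identical copies, and reads from them may not have been placed with certainty.

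The contacts between the stretches numbered 1628 in control, where 232 were expected from the interchromosomal totals of the bins (7.01 times, 95% Poisson interval 6.67 to 7.36). They numbered 9979 in CTCF siRNA, where 747 were expected (13.4 times, 13.1 to 13.6). They made up 4.27% of all contacts between the chromosomes in control and 8.72% in CTCF siRNA, in 0.763% of their bin pairs. The contacts were spread over 1336 and 5246 pairs of bins of 43956 usable ones, and the pair with the most, chr6:42120001-42160000 with chr16:72040001-72080000, held 0.921% of them (15 contacts) and 0.972% (97 contacts). This pair lies next to the breakpoint on the lower side of both chromosomes.

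Contacts filled a pair of facing quadrants and left the other pair nearly empty. Within 1 Mb of the breakpoint bins, control had 262 contacts between the chromosome 6 side below the breakpoint and the chromosome 16 side below it (the lower junction) and 251 between the sides above it (the upper junction). The opposite quadrants held 3 and 8 contacts, where 3.30 and 3.70 were expected between unjoined chromosomes. CTCF siRNA had 2618 and 1329 contacts in the joined quadrants and 3 and 12 in the opposite ones. The joined quadrants thus held 97.9% of 524 contacts in control (Wilson 95% interval 96.3 to 98.8) and 99.6% of 3962 in CTCF siRNA (99.4 to 99.8).

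The centromere gaps lie at 58780167 to 61880166 of chromosome 6 and 35285802 to 46385801 of chromosome 16. The lower junction therefore links the end side of the chromosome 6 short arm to the centromere side of the chromosome 16 long arm. The upper junction links the centromere side of the chromosome 6 short arm to the end side of the chromosome 16 long arm.

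**Figure D1:**
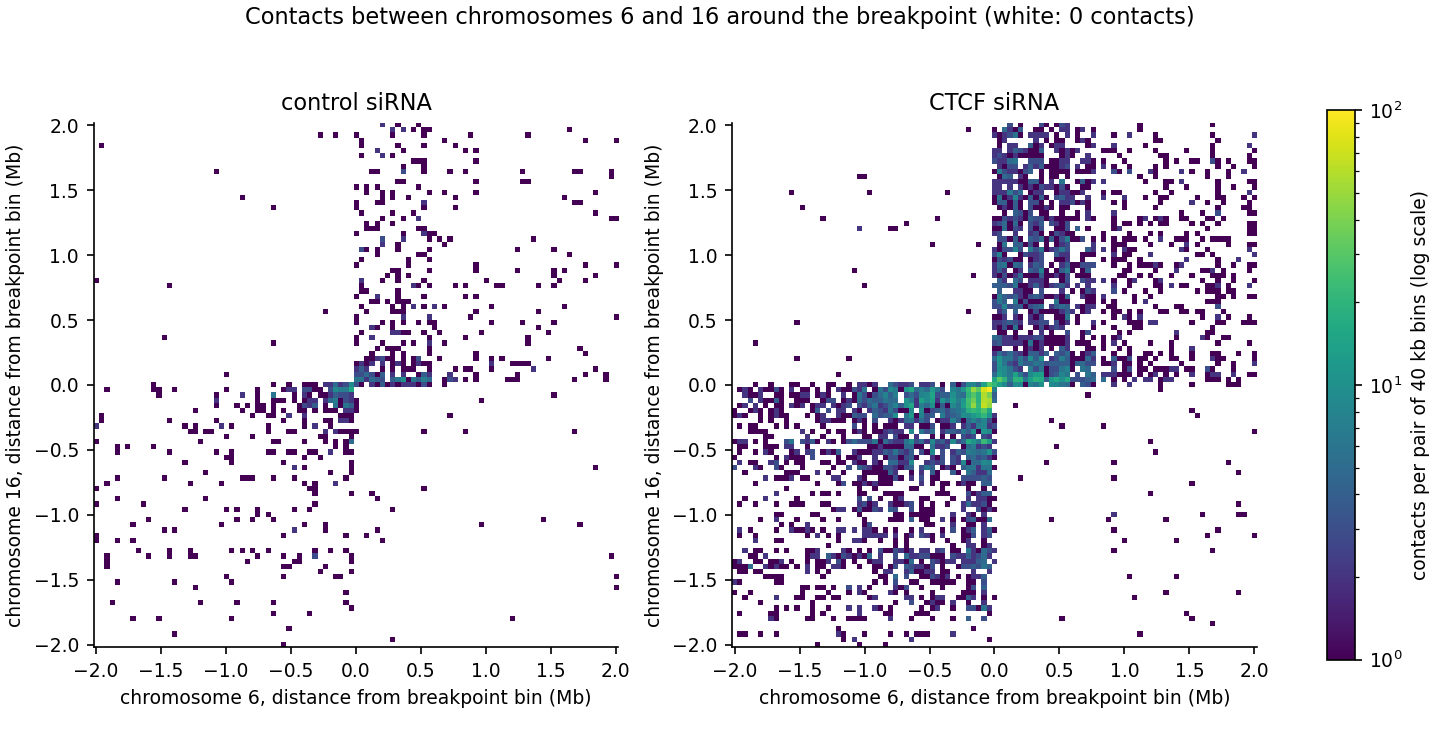
Contacts per pair of 40 kb bins within 2 Mb of the breakpoint bins in control siRNA (left) and CTCF siRNA (right), with distance from the breakpoint bin in Mb on chromosome 6 (horizontal) and chromosome 16 (vertical) and a logarithmic colour scale. The lower left and upper right quadrants are filled (262 and 251 contacts within 1 Mb in control, 2618 and 1329 in CTCF siRNA) and the other quadrants are nearly empty.

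The change of side was complete from a bin to the next but for the breakpoint bins themselves. The chromosome 6 bin just below the breakpoint bin (from 42120001) had 39 contacts with the lower 1 Mb of chromosome 16 and 0 with the upper 1 Mb in control, and 343 and 0 in CTCF siRNA. The bin just above (from 42200001) had 0 and 22 in control and 0 and 145 in CTCF siRNA. The breakpoint bins contacted both sides. The chromosome 6 breakpoint bin had 4 contacts with the lower and 18 with the upper 1 Mb of chromosome 16 in control, and 33 and 68 in CTCF siRNA, so most of them were with the upper side. The chromosome 16 breakpoint bin had 28 and 24 with the lower and upper 1 Mb of chromosome 6 in control, and 102 and 110 in CTCF siRNA, close to evenly split. The breakpoint bins had 3 and 21 contacts with each other.

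The junctions reached far along both chromosomes. From 32 Mb to the breakpoint of chromosome 6, contacts with chromosome 16 from 60 Mb to the breakpoint were 4.53 times the expected number in control and 8.22 times that number after CTCF siRNA. This chromosome 6 segment was at 2.37 and 3.14 times with chromosome 16 from its centromere to 60 Mb and at 1.30 and 1.48 times with the short arm. Across the breakpoint, with chromosome 16 up to 80 Mb, it was at 0.865 and 0.787 times, and with chromosome 16 from 80 Mb to its end it was at 0.998 (0.879 to 1.13) and 1.14 (1.07 to 1.21) times. The excess on the lower side therefore fell in steps with distance. Across the breakpoint there was none over the expected number up to 80 Mb in either map, and a small one beyond 80 Mb in CTCF siRNA. Other unjoined segments lay below the expected number. Chromosome 6 from the breakpoint to 50 Mb was at 0.793 to 0.810 times in control with the segments of chromosome 16 below the breakpoint. In CTCF siRNA it was at 0.710 to 0.805 times with them. Beside these, the values beyond 80 Mb were higher in both maps.

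On the upper side, chromosome 6 from the breakpoint to 50 Mb was at 7.04 times the expected number with chromosome 16 up to 80 Mb in control and at 10.7 times in CTCF siRNA. It was at 3.75 and 5.39 times with chromosome 16 from 80 Mb to its end. From 50 Mb to the centromere the values were 2.47 and 2.89 times up to 80 Mb and 2.73 and 2.58 times from 80 Mb to the end. On the chromosome 6 long arm they were 1.35 and 1.26 times up to the place where contacts with chromosome 4 begin, and 0.980 (0.944 to 1.02) and 0.985 (0.963 to 1.01) times beyond it. The unjoined segments of chromosome 16 were lower with that last stretch, at 0.764 to 0.785 times in control and 0.658 to 0.703 times in CTCF siRNA. With chromosome 16 up to 80 Mb the values on this side thus fell along chromosome 6, and beyond the place where contacts with chromosome 4 begin they were near the expected number but above those of the unjoined segments.

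Most of the strong partners of the member bins lay on the joined chromosome, by whose contacts the members were chosen. Pairs of 1 Mb bins were searched over all chromosomes for at least 10 contacts and over 3 times the expected number in both maps. Of member bins of chromosome 6 with bins of chromosome 16, 97 pairs passed. Pairs of chromosome 16 member bins with chromosome 6 bins outside the stretch also passed and are not in this count. Another 14 pairs of member bins were with chromosomes other than 6 and 16. They joined the bins of chromosome 16 that start at 70 and 71 Mb with bins of chromosome 1 that start between 144 and 154 Mb. The largest of them, between the bins that start at 70 Mb of chromosome 16 and 146 Mb of chromosome 1, had 144 contacts in control and 463 in CTCF siRNA (70.6 and 72.3 times). This was above the highest value of that chromosome 16 bin with chromosome 6, 14.2 and 43.9 times with the bin that starts at 41 Mb. HYDIN, a gene of motile cilia at chr16:70835987-71264625, has a near-identical copy on chromosome 1, so contacts of its bins are uncertain. Without the HYDIN bins the junction values at 80 kb to 1 Mb given next moved by less than 1 percentage point. HYDIN lies 0.835 Mb below the breakpoint, so few lower pairs at these distances hold its bins and no upper ones do. The values beyond 1 Mb were not checked without it.

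The lower junction was stronger relative to cis contacts in CTCF siRNA than in control, by an amount that depended on the coverage of its bins. At 80 kb to 1 Mb along the joined chromosome it held 223 contacts in control, 35.6% of the mean number at equal distance along chromosomes 6 and 16 (31.1 to 40.7). In CTCF siRNA it held 2186, 79.4% of that number (76.1 to 82.8). The ratio of the maps was 2.22 (1.93 to 2.56).

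At this distance and on the same measure the upper junction changed less. It held 205 contacts in control, 33% of the cis number (28.6 to 37.9), and 982 in CTCF siRNA, 35.9% (33.7 to 38.2). The ratio was 1.09 (0.933 to 1.27), an interval that holds 1. Relative to all read pairs or to the interchromosomal expectation it was 1.43 (1.23 to 1.67), an interval above 1, so the call rests on the reference. At longer distances the upper junction was higher in CTCF siRNA. The ratio was 1.58 (1.33 to 1.89) at 1.04 to 2 Mb, where the junction was at 33.1% in control and 53.1% in CTCF siRNA. It was 1.43 (1.24 to 1.65) at 2.04 to 4 Mb and between 1.13 and 1.29 from there to 32 Mb, and each of these intervals lay above 1.

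Coverage of the flanks moved with the difference at the lower junction. Cis contacts of the lower 1 Mb flank of chromosome 6, relative to the autosomal median, were 1.92 times as high in CTCF siRNA as in control, against 1.73 for its upper flank, 1.61 for the lower flank of chromosome 16 and 1.28 for its upper flank. GC content ran in the same order, at 49.1, 45.8, 43.0 and 39.8%, against 39.6% for the autosomes. With each bin divided by its cis count, the lower junction was at 71.9% (62.7 to 82.0) in control and 88.1% (84.4 to 91.8) in CTCF siRNA, a ratio of 1.22 (1.06 to 1.41). The upper junction was then at 64.9% (56.3 to 74.5) and 65.8% (61.8 to 70.1), a ratio of 1.01 (0.869 to 1.18). Beyond 1 Mb the ratio of the upper junction on this scale was 1.22 (1.02 to 1.46) at 1.04 to 2 Mb and between 1.01 and 1.19 at longer distances. Background was left in the counts of these ratios.

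Set against autosomal bins of like GC content, the flanks differed far less between the maps. The median cis level of the lower flank of chromosome 6 was then 0.767 times that of such bins in control and 0.792 times in CTCF siRNA, and that of its upper flank 0.561 and 0.571 times. The lower flank of chromosome 16 was at 0.632 and 0.705 times, and its upper flank at 0.640 and 0.673 times. In cis contacts all 4 flanks were thus below bins of like GC content in both maps. Their interchromosomal levels were 0.799 to 0.923 times those of such bins in control. In CTCF siRNA the lower flanks were at 1.07 (chromosome 6) and 1.05 (chromosome 16) times and the upper flanks at 0.965 and 0.892 times.

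**Figure D2:**
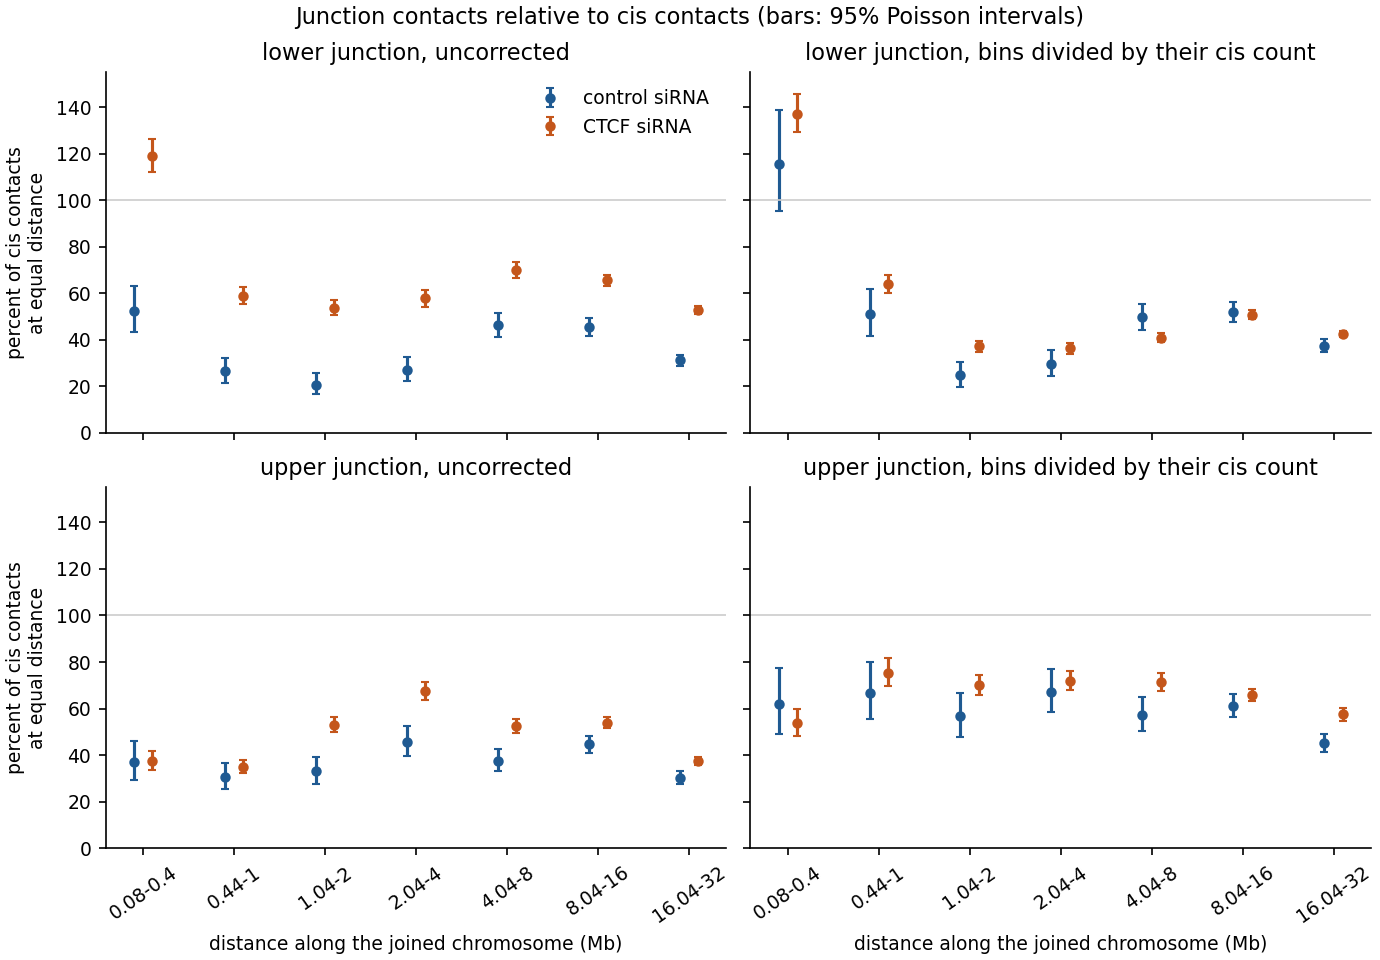
Junction contacts as a percent of cis contacts at equal distance, by distance along the joined chromosome (Mb), for the lower junction (top) and the upper junction (bottom), uncorrected (left) and with bins divided by their cis count (right). Points are the maps and bars are 95% Poisson intervals. At 0.08 to 0.4 Mb the uncorrected lower junction lies at 52.5% in control and 119% in CTCF siRNA, and the corrected values, 115% and 137%, have intervals that overlap.

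The junctions differed in how they ran with distance. With bins divided by their cis count, the lower junction was at 115% of the cis number at 80 to 400 kb in control and 137% in CTCF siRNA. Divided by interchromosomal count instead, it was below the cis number there, at 69.3% (57.2 to 83.3) and 84.0% (79.1 to 89.1). By cis count it was at 24.9% and 37.2% at 1.04 to 2 Mb and at 29.7% and 36.3% at 2.04 to 4 Mb, its lowest values in both maps. It lay between 37.5 and 52.0% at longer distances. The upper junction had no such peak and lay between 45.2 and 67.3% in control and between 53.7 and 75.4% in CTCF siRNA at every distance up to 32 Mb. The ratio of the maps at the corrected lower junction was 1.43 (1.17 to 1.78) at 1.04 to 2 Mb, and at 2.04 to 4 Mb its interval held 1 (0.947 to 1.34). It was then 0.775 (0.699 to 0.859) at 4.04 to 8 Mb and 0.895 (0.838 to 0.956) at 8.04 to 16 Mb. At 16.04 to 32 Mb it was 0.960, with an interval that holds 1. These ratios keep the background, which is subtracted from the percents. By the percents, control was higher at 4.04 to 8 Mb, at 49.6% against 40.9%, with intervals apart. At 8.04 to 16 Mb, 52.0% in control and 50.9% in CTCF siRNA had overlapping intervals. At 16.04 to 32 Mb CTCF siRNA was higher, at 42.6% against 37.5%, with intervals apart. Uncorrected, the ratio of the maps was between 1.32 and 2.48 at all of these distances.

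The slopes showed the same. The decay exponent from 80 kb to 2 Mb was -1.70 ± 0.0645 (SE of the fit over 49 distances) for the lower junction in control and -1.62 ± 0.0330 in CTCF siRNA. It was -1.31 ± 0.0655 and -1.09 ± 0.0343 for the upper junction. Cis contacts had exponents of -1.05 and -1.02 on chromosome 6 and -1.13 and -1.11 on chromosome 16, so the lower junction was steeper than cis contacts in both maps, and so was the upper junction in control. In CTCF siRNA the upper junction lay between the cis values of the chromosomes over this range. Fitted up to 1 Mb it was at -1.07 ± 0.0669, against -0.87 ± 0.0226 on chromosome 6 and -0.96 ± 0.0276 on chromosome 16. Up to 4 Mb it was at -1.26 ± 0.0255, against -1.16 ± 0.0248 and -1.22 ± 0.0242. In these fits it was steeper than chromosome 6, while the gap from chromosome 16 was not clear beside the SEs.

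**Figure D3:**
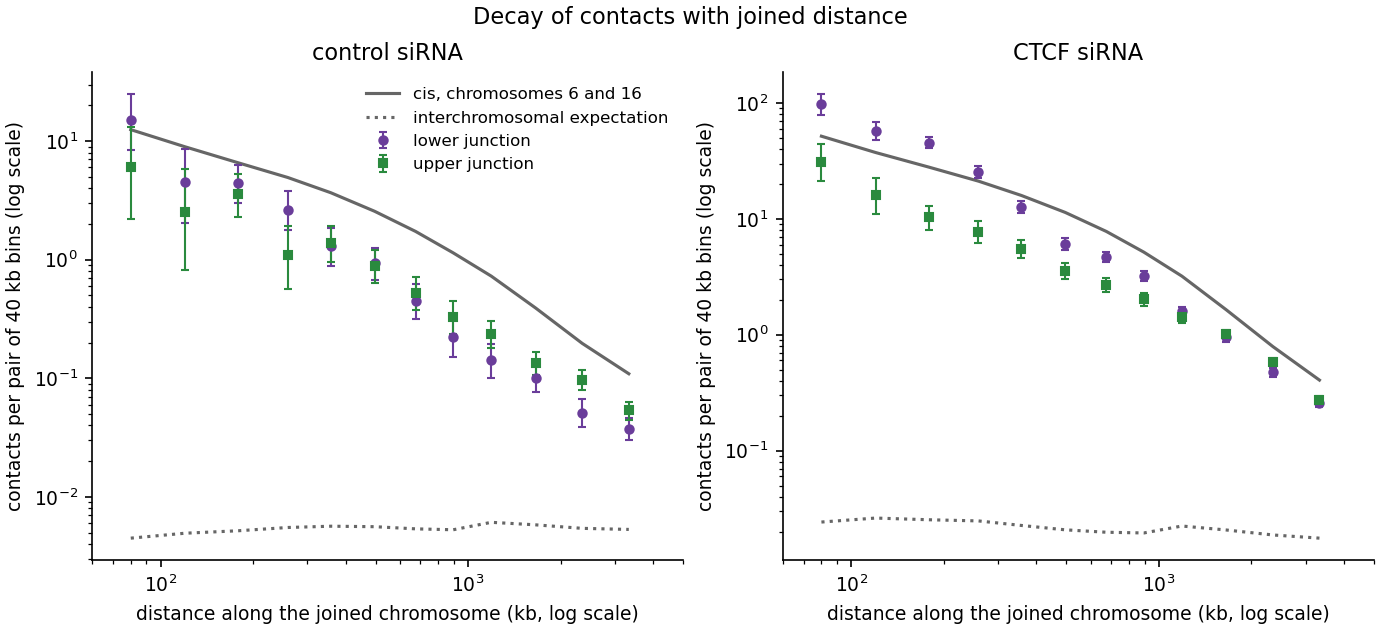
Contacts per pair of 40 kb bins against distance along the joined chromosome (kb), both on logarithmic axes, in control siRNA (left) and CTCF siRNA (right). Points are the junctions with 95% Poisson intervals, the solid line is the mean of cis contacts of chromosomes 6 and 16 and the dotted line the number expected between unjoined chromosomes. At 80 kb the lower junction has 15 contacts in control and 97 in CTCF siRNA, above the cis means of 12.5 and 51.6, and the upper junction has 6 and 31.

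A comparison that needs no coverage correction sets the junctions against contacts across the breakpoint along each chromosome, made by the same bins. Within 1 Mb, 179 contacts crossed the breakpoint on chromosome 6 and 109 on chromosome 16 in control, and 1462 and 778 in CTCF siRNA. The geometric mean of the junctions over that of the crossing contacts was 1.84 in control (1.58 to 2.13, Wald interval on the log scale) and 1.75 in CTCF siRNA (1.66 to 1.85). Their ratio was 0.953 (0.814 to 1.11), so no difference between the maps in this joint measure was detectable at this depth. It takes both junctions together, so it cannot show a change of the lower junction relative to the upper one. Contacts across the breakpoint were present in both maps, and their geometric mean was below that of the junctions at every flank tried.

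**Figure D4:**
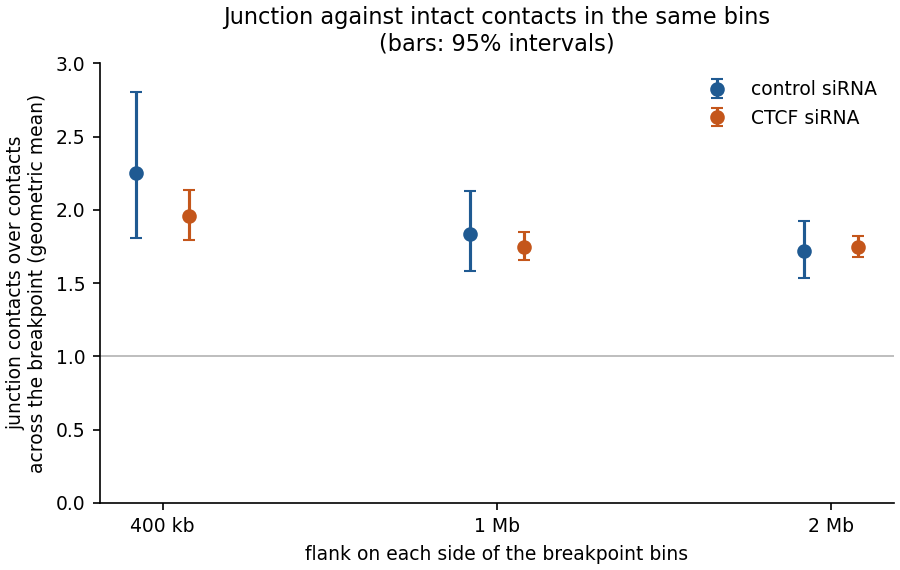
Geometric mean of contacts over the junctions divided by that of contacts across the breakpoint along chromosomes 6 and 16, in the same bins, for flanks of 400 kb, 1 Mb and 2 Mb on each side. Points are the maps and bars are 95% intervals. All 6 points lie above 1, between 1.72 and 2.25, and the intervals of the maps overlap at each flank.

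Contacts along each chromosome, which the choice of members did not use, also dropped at the breakpoint. The insulation value of a bin compares contacts across the bin, as log2 of observed over expected, with those within its 400 kb flanks, so a low value marks a barrier. The chromosome 6 breakpoint bin was at -2.14 in control, where 72 contacts crossed it and 347 were expected, and at -1.58 in CTCF siRNA, with 608 and 1297. The chromosome 16 breakpoint bin was at -2.62, with 47 contacts and 341 expected, and at -2.27, with 284 and 2042. Of 3749 bins of chromosome 6, 9 were lower than the breakpoint bin in control and 15 in CTCF siRNA, and of 1386 bins of chromosome 16, 0 and 2 were lower. The breakpoint bins were thus among the lowest of their chromosomes in both maps. The value rose by 0.56 and 0.35 (log2) from control to CTCF siRNA. The size of the rise depended on the flanks, and on chromosome 6 it was 0.84 with flanks of 200 kb and 0.34 with flanks of 800 kb.

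The breakpoint was not alone in this. On chromosome 6, the bin from 43520001, which overlaps XPO5, the exporter of microRNA precursors, was at -2.17 in control and -2.02 in CTCF siRNA. This low was as deep as that of the chromosome 6 breakpoint bin in control and deeper in CTCF siRNA, and both TAD lists have an edge beside it, at 43500000.

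**Figure D5:**
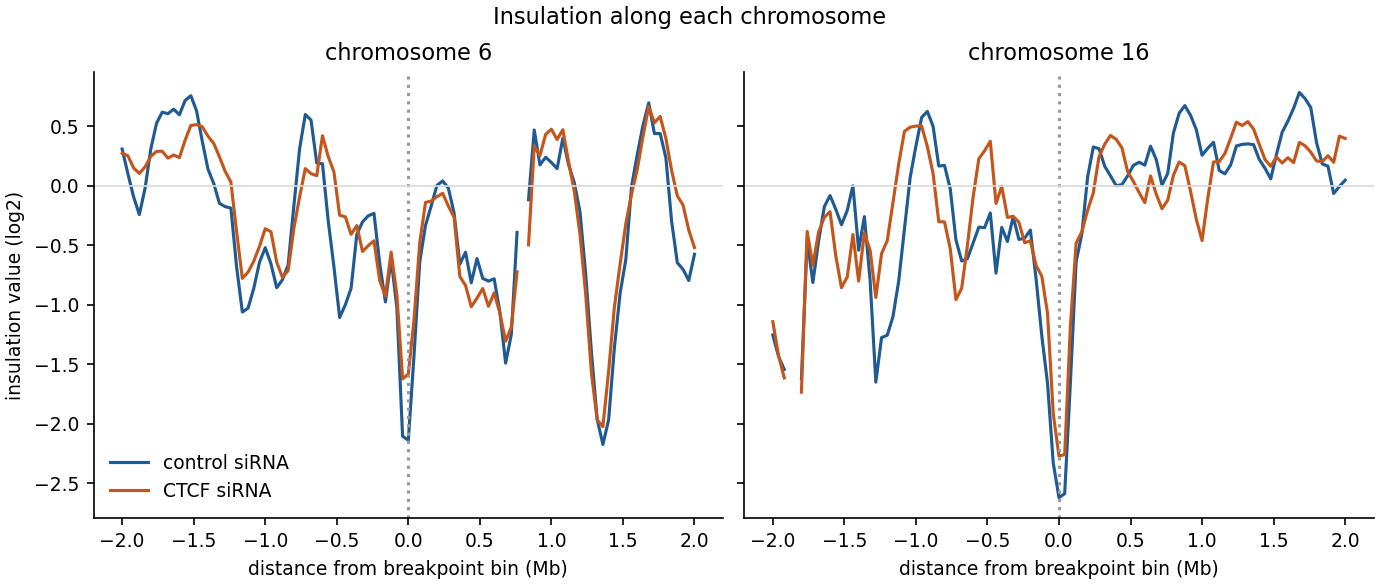
Insulation value (log2) of 40 kb bins within 2 Mb of the breakpoint bin on chromosome 6 (left) and chromosome 16 (right), against distance from the breakpoint bin in Mb, in control siRNA and CTCF siRNA. Lines join the bins of a map, gaps are bins with no value, and the dotted line marks the breakpoint bin, where chromosome 6 is at -2.14 and -1.58 and chromosome 16 at -2.62 and -2.27.

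Over the stretches as a whole, insulation values changed about as often as in the rest of the genome. The insulation value rose by over 0.5 in 48 of 420 member bins (11.4%), against 12.8% of 58287 autosomal bins. It fell by over 0.5 in 14 (3.33%), against 3.77%. The median change was 0.05 in the members and 0.02 over the autosomes. The members' shares were near the background. With flanks of 200 kb the value fell by over 0.5 in 8.89% of 416 member bins, against 6.22% of autosomal bins, so the share of falls rests on the flanks.

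With flanks of 400 kb the bins with the largest changes lay away from the breakpoint. The largest rise was in a bin with no protein-coding gene, chr16:75800001-75840000, from -2.04 to -0.85. Next were the bin from 39320001 on chromosome 6, in the kinesin gene KIF6 (-1.55 to -0.37), and the bin from 44360001, in CDC5L, a cell cycle and splicing factor (-2.41 to -1.28). The order rests on the flanks, since the rises of these 3 bins were 0.90, 0.64 and 1.23 with flanks of 800 kb and 1.45, 1.22 and 0.65 with flanks of 200 kb, where the chromosome 6 breakpoint bin rose by more than the CDC5L bin. The 3 largest falls were neighbouring bins of chromosome 16 within ZFHX3, a zinc finger and homeobox transcription factor known as a tumour suppressor in the prostate. The deepest of them, chr16:73040001-73080000, went from 0.47 to -0.28.

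The authors' TAD lists placed an edge at the breakpoint on both chromosomes. On chromosome 6, both lists had a TAD from 41300000 to 42140000, which ends 40 kb below the middle of the breakpoint bin, and a TAD that starts there and ends at 42540000 in control and 42580000 in CTCF siRNA. On chromosome 16, a control TAD ended at 72060000, 40 kb below the middle of the breakpoint bin, and the next ran from there to 74660000. In CTCF siRNA a TAD ended at 72060000 and the next began at 72100000, the middle of the breakpoint bin. No TAD of either list reached over 40 kb to both sides of the breakpoint bin. The breakpoint bin itself lay within 1 TAD of each chromosome in control and within 1 of chromosome 6 and 0 of chromosome 16 in CTCF siRNA. Moving the breakpoint up by 1 bin gave 1 TAD reaching over 40 kb to both sides in both lists on chromosome 6 and in control on chromosome 16, so the count of TADs divided by it rests on the exact bin.

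Above the breakpoint on chromosome 16 the lists differed within ZFHX3. The control TAD of 2600 kb from 72060000 to 74660000 stood against CTCF siRNA TADs from 72100000 to 73060000 and from 73060000 to 74380000. The edge at 73060000 lies in the bin with the largest fall in insulation value. Below the breakpoint, the CTCF siRNA TAD from 70220000 to 72060000 covered the control TAD from 70820000 to 72060000 and most of the one from 70140000 to 70820000.

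Over both stretches, 13 of 24 control boundaries (54.2%, Wilson 95% interval 35.1 to 72.1) had a CTCF siRNA boundary within 40 kb, beside 50.6% over all chromosomes. Of 19 CTCF siRNA boundaries, 13 (68.4%, 46 to 84.6) had a control boundary within 40 kb, beside 60.7%. Both intervals hold the value of all chromosomes.

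Contacts over the junctions were unevenly spread over the TADs they link. At the lower junction in control, with bins divided by their cis count, the TADs next to the breakpoint had 267 contacts, 53.3% of the cis number at equal distance (46.9 to 60.2). The chromosome 6 TAD next to the breakpoint with the second one of chromosome 16 had 31 contacts, 31.0% (20.6 to 44.6). The second TAD of chromosome 6 with the first of chromosome 16 had 65, 23.3% (17.4 to 30.4). In CTCF siRNA these values were 65.9, 53.5 and 35.9%, over TADs of other extents. Of these 3 combinations the adjacent TADs had the highest share in both maps. The first TAD of chromosome 6 with the third of chromosome 16 was at 59.4% in control, from 16 contacts (31.2 to 101), and at 37.9% in CTCF siRNA, from 94 (30 to 47.1).

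At the upper junction the order was another. The TADs next to the breakpoint had 235 contacts in control, 74.1% of the cis number (64.8 to 84.4), and 803 in CTCF siRNA, 66.7% (62.2 to 71.5). With bins divided by their cis count, the first TAD of chromosome 6 with the second of chromosome 16 had more than the cis number. It was at 201% in control, from 16 contacts (111 to 333), and at 150% in CTCF siRNA, from 606 (138 to 162). Without that division the control value was 0.941 times the cis number. With the third of chromosome 16 the first of chromosome 6 was at 133% in control, from 18 contacts (71.7 to 219). In CTCF siRNA it was at 203%, from 135 (169 to 241), the highest of the combinations at this junction in that map. TADs of the same rank cover other extents in each map. The second of chromosome 16 in control (74660000 to 75180000) lies within the third in CTCF siRNA (74380000 to 75180000), and these were at 201% and 203%. The second of chromosome 6 with the first of chromosome 16 was at 40.8% (32.2 to 50.9) and 58.1% (53.4 to 63.0).

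On chromosome 6 the breakpoint bin overlaps 3 protein-coding genes. GUCA1B, which encodes a calcium-sensing activator of photoreceptor guanylate cyclase, lies at chr6:42151022-42162694 on the minus strand, with 23.1% of its length and its start in the bin. MRPS10, a protein of the small subunit of the mitochondrial ribosome, lies wholly within it at chr6:42174545-42185599. TRERF1, a zinc finger transcriptional regulator, lies at chr6:42192669-42419789 on the minus strand and has 3.23% of its length, its last part, in the bin.

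On chromosome 16 the breakpoint bin also overlaps 3. HP, which encodes haptoglobin, the plasma protein that binds free haemoglobin, lies at chr16:72088404-72094954, and its copy HPR at chr16:72097047-72111145. TXNL4B, a thioredoxin-like protein linked to pre-mRNA splicing, spans the bin and both its edges at chr16:72078188-72128330. At 40 kb the data do not say which of these 6 genes, if any, the breakpoint interrupts.

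The nearest genes outside the bin on chromosome 6 were GUCA1A, the paralog of GUCA1B, 10.9 kb below, and UBR2, a ubiquitin ligase of the N-degron pathway, 332 kb above. Below it followed an unnamed gene (ENSG00000290147), GUCA1ANB, C6orf132 and TAF8, a subunit of the general transcription factor TFIID, at 105 kb. Above it followed PRPH2, a protein of photoreceptor discs, TBCC, a tubulin folding cofactor, BICRAL, a chromatin remodelling subunit, and RPL7L1. On chromosome 16, DHODH, the mitochondrial enzyme of pyrimidine synthesis, lay 18.4 kb below, followed by PKD1L3, IST1, ZNF821 and ATXN1L. DHX38, a splicing helicase, lay 7.51 kb above, followed by PMFBP1, which acts in sperm, ZFHX3 at 697 kb, the proteasome subunit gene PSMD7 at 2211 kb and NPIPB15.

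The listed genes contacted the joined side of the other chromosome rather than the opposite one, as did the bins around the breakpoint at large. The joined sides were read from these same contacts and held 95.9% in control and 98.9% in CTCF siRNA within 2 Mb. The gene counts are therefore a description and no separate support. Of 48 listed genes, among them CTCF outside the stretch, 45 in control and 48 in CTCF siRNA had more contacts with the joined 2 Mb than with the opposite 2 Mb. The exceptions in control were BCAR1, with 3 and 3, and HSP90AB1 and NFKBIE, which share a bin with 0 and 1. Genes in the same bin share their contacts and are not independent. The 11 genes of chromosome 6 below the breakpoint summed to 279 joined and 8 opposite contacts in control and 2771 and 13 in CTCF siRNA. The 14 above it or reaching into it summed to 346 and 19, and 1906 and 31. The 14 of chromosome 16 below it summed to 269 and 15, and 2383 and 51, and the 9 above it to 427 and 15, and 2242 and 37.

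Below the breakpoint on chromosome 6, CCND3, which encodes cyclin D3, had 69 contacts with the lower 2 Mb of chromosome 16 and 3 with the upper 2 Mb in control, and 723 and 3 in CTCF siRNA. TAF8 had 51 and 1, and 500 and 2. GUCA1A, in the bin next to the breakpoint bin, had 43 and 0, and 372 and 0. TFEB, the regulator of lysosome genes at 0.476 Mb, had 21 and 0, and 200 and 1, and TREM2, a receptor of myeloid cells at 1.05 Mb, 4 and 0, and 65 and 3. Per bin, the contacts with the joined side were 43 for GUCA1A, 25.5 for TAF8, 17.3 for CCND3, 10.5 for TFEB and 4 for TREM2 in control, and 372, 250, 181, 100 and 65 in CTCF siRNA. Over these 5 genes they fell with distance from the breakpoint in both maps. Some of the other listed genes on this side departed from that order. BYSL, which lies between CCND3 and TFEB, had 5 per bin in control and 62 in CTCF siRNA. MDFI, further out than TFEB, had 10 in control, just below TFEB, but 109 in CTCF siRNA, above it.

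Above the breakpoint on chromosome 6, TRERF1 had 120 contacts with the upper 2 Mb of chromosome 16 and 5 with the lower 2 Mb in control, and 811 and 2 in CTCF siRNA. UBR2 had 80 and 0, and 363 and 4. Per bin, contacts with the joined side were 20.0 for TRERF1, 20.0 for UBR2, 24 for PRPH2 and 29 for TBCC in control, so they did not fall over this distance. They were 7 for PTCRA, the pre-T cell receptor alpha chain, at 0.704 Mb, and 5.33 for PTK7, a receptor-like kinase, at 0.864 Mb. In CTCF siRNA they were 135, 90.8, 110 and 124 for the first 4, 75 for PTCRA and 23 for PTK7. The drop thus came between TBCC and PTK7 in both maps, beyond the upper edge of the TAD next to the breakpoint. Further out, VEGFA, the vascular growth factor, had 1 and 0 contacts in control and 7 and 1 in CTCF siRNA, and RUNX2, the transcription factor of bone, 16 and 3 and 67 and 3.

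On chromosome 16, DHODH had 60 contacts with the lower 2 Mb of chromosome 6 and 0 with the upper in control, and 425 and 1 in CTCF siRNA. DHX38 had 76 with the upper 2 Mb and 0 with the lower, and 251 and 0. PMFBP1 had 128 and 1, and 499 and 1. ZFHX3, spread over 29 bins, had 150 and 6, and 1199 and 18. The distant CDH1, which encodes E-cadherin, had 7 and 0, and 39 and 1. Of the listed genes on each side of chromosome 16, those nearest to the breakpoint bin, DHODH and DHX38, had the most contacts per bin in both maps.

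Pairs of genes from the separate chromosomes were set against cis contacts at equal distance, and 4 of 280 pairs, picked after their values were seen, are given as examples. GUCA1A and DHODH, in the bins flanking the breakpoint bins on the lower side, had 15 contacts in control and 97 in CTCF siRNA, 2.89 and 2.21 times the cis number at equal distance with bins divided by their cis count (1.62 to 4.78 and 1.79 to 2.70). TRERF1 and ZFHX3 had 41 and 371, at 0.670 (0.477 to 0.914) and 0.939 (0.845 to 1.04) times. TRERF1 and PMFBP1 had 43 and 183, at 0.679 (0.491 to 0.915) and 0.517 (0.444 to 0.597) times. UBR2 and ZFHX3 had 25 and 157, at 1.07 (0.684 to 1.60) and 1.36 (1.16 to 1.60) times. TRERF1 with PMFBP1 thus lay below the cis number in both maps, and the 4 pairs are no summary of the others, some of which lay further below it, such as TFEB with ATXN1L at 0.363 times (0.180 to 0.651) in CTCF siRNA. For TRERF1 with ZFHX3 or PMFBP1 and for UBR2 with ZFHX3 the intervals of the maps overlapped, and so did those of GUCA1A with DHODH. GUCA1A and DHODH are a single pair of bins, 80 kb apart along the joined chromosome. Without division by cis count, its 15 contacts in control (8.40 to 24.7) stood against a cis mean of 12.5. Its 97 in CTCF siRNA (78.7 to 118) stood against 51.6. The control interval then held the cis mean, so the excess in control rests on the division.

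The gene of the siRNA target is itself on the joined chromosome. CTCF lies at chr16:67596370-67673080, 4.43 Mb below the breakpoint and outside the stretch. Its 3 bins had 14 contacts with the 8 Mb of chromosome 6 below the breakpoint in control, 5.56 times the expected number (3.04 to 9.33), and 56 in CTCF siRNA, 6.47 times (4.89 to 8.41). With the 8 Mb above the breakpoint they had 0, where 2.51 were expected, and 10 (1.24 times, 0.594 to 2.28). The excess was thus seen on the joined side.

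Contacts between chromosomes 4 and 10 and between chromosomes 4 and 6 gave junctions of another form. The former, between the bins from 96280001 on chromosome 4 and 95360001 on chromosome 10, had 249 contacts in a single quadrant in control, 37.8% of the cis number, and 0 to 1 in the others. In CTCF siRNA that quadrant had 1188, 46.2%. The latter, between the bins from 98000001 on chromosome 4 and 87520001 on chromosome 6, had 271 in a single quadrant in control (43.6%), 0 to 2 in the others, and 631 in CTCF siRNA (29.6%). These bins are those located in the CTCF siRNA map. In control the chromosome 6 side was located at 86440001, with weight in a pair of quadrants (0.496 and 0.115 of the cis number), so the control count, the single quadrant and the ratio of the maps below hold for the position from the other map. Of these 3 junctions, measured at these bins, only that of chromosomes 6 and 16 filled a pair of facing quadrants.

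The ratio of the maps also differed among them. It was 1.22 (1.06 to 1.40) for chromosomes 4 and 10 and 0.678 (0.587 to 0.785) for chromosomes 4 and 6, against 2.22 (1.93 to 2.56) at the lower junction of chromosomes 6 and 16. The interval of the last lies apart from those of the others. The upper junction of chromosomes 6 and 16, at 1.09 (0.933 to 1.27), overlaps that of chromosomes 4 and 10. With bins divided by their cis count the intervals of the ratios were 1.03 to 1.36, 0.955 to 1.28 and 1.06 to 1.41 for the same 3 junctions in that order, and they overlap, as does that of the upper junction, 0.869 to 1.18.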

How the data were processed

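Hi-C maps of LNCaP cells with control siRNA and CTCF siRNA were analysed. Per the submitters' notes and methods, the authors mapped reads to hg19 with Bowtie 1.1.0 through HiCUP and pooled replicates, with 1 map of 40 kb bins per condition. The deposited contact values are other than plain counts: for a bin at positions 9400001 to 48120000 the number of read pairs is multiplied by a factor set by that position, alike on every chromosome, and pairs of bins outside that span, such as those within the chromosome 16 stretch, are whole. Counts were recovered by division, and all 1338 and 5257 pairs of member bins with contacts came out whole (tolerance 0.010 plus 0.05% of the value). The deposited TAD coordinates came from the authors' directionality index and hidden Markov model.

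Groups follow the labelled siRNA. Bins under 10% of their chromosome's median cis count were left out. The breakpoint was the bin pair of highest Poisson likelihood. Expected contacts came from interchromosomal totals, or from chromosome and distance in cis. Ratios of the maps are ratios of counts before background was subtracted. Gene positions are from GENCODE v44lift37, and named genes were those at or nearest to the breakpoint, CTCF and a fixed list. Members and lists were chosen with earlier results of these data known. Scripts used Python 3.11.15, numpy 2.4.6, scipy 1.17.1 and statsmodels 0.14.6, and were tested on simulated data. Read pairs are not independent molecules, so intervals cover counting error only. Alternatives covered the expectation, contact values, windows, reference, bin correction, breakpoint position and flank.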

Additional observations from a re-analysis of the deposited data

How the results depend on the processing

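No paired analysis was possible because each condition came as 1 pooled map, and no replicate could be left out for the same reason. Of 150 values under alternatives to 39 results, 94 were kept and 56 moved. Kept meant within counting error for shares and ratios, within 1.5 times for counts and the same bin for positions. For insulation changes it meant that the size stayed on the same side of 0.5. Of the ratios whose interval left out 1 and the insulation changes over 0.5, 0 changed direction. The breakpoint bins were the same under every alternative run, among them the CTCF siRNA map thinned to the control total in 1 draw. With a uniform expectation from the rest of the chromosome pair, the contacts between the stretches were 5.88 (control) and 12.6 (CTCF siRNA) times the expected number. The share of the joined quadrants was 100% and 99.9% within 400 kb and 95.9% and 98.9% within 2 Mb. The lower junction, in percent of cis contacts in control and CTCF siRNA, was 52.5 and 119 at 80 to 400 kb, 29.5 and 68.9 at 80 kb to 2 Mb, 71.9 and 88.1 with bins divided by cis count, 46.8 and 65.2 by interchromosomal count (chosen after seeing the data), 30.3 and 68.2 with the breakpoint 1 bin lower on chromosome 6, and 27.6 and 66.2 with it 1 bin lower on chromosome 16. Against chromosome 6, chromosome 16 or all autosomes as reference it was 89.9, 60.4 and 69.5 in CTCF siRNA. The upper junction was 64.9 and 65.8 with bins divided by cis count, 22.6 and 28.6 with the breakpoint 1 bin higher on chromosome 16 and, in CTCF siRNA, 42.9 at 80 kb to 2 Mb, 40.7, 27.3 and 31.4 against the same references, 32 with the breakpoint 1 bin higher on chromosome 6, 38.7 with it 1 bin lower on chromosome 16 and 33 by interchromosomal count. The ratio of the maps at the lower junction was 2.93 relative to all read pairs and, in alternatives chosen after seeing the data, 1.22 by cis count, 1.39 by interchromosomal count, 2.56 against chromosome 6 and 1.60 against chromosome 16. At the upper junction it was 1.43 relative to all read pairs and to the interchromosomal expectation (1.23 to 1.67 in both), 0.900 by interchromosomal count and 0.782 against chromosome 16, so its side of 1 depended on the reference. The comparison of junctions with contacts across the breakpoint was itself added after seeing the data, and gave 2.25 and 1.96 within 400 kb. Its ratio of the maps was 0.869 within 400 kb, 0.953 within 1 Mb and 1.02 within 2 Mb, all with intervals that hold 1. The decay exponent in CTCF siRNA was -1.54 for the lower junction up to 1 Mb and -1.26 for the upper junction up to 4 Mb. With flanks of 200 kb, 37 member bins (8.89%, beside 6.22% of autosomal bins) fell by over 0.5 against 14 (3.33%, beside 3.77%). With the breakpoint bin 1 bin lower, 0 TADs held it on chromosome 6 in both lists and on chromosome 16 in control. With it 1 bin higher, 1 TAD held it on chromosome 16 in CTCF siRNA, and 1 reached over 40 kb to both sides on chromosome 6 in both lists and on chromosome 16 in control. Of the boundaries of the stretches, 25% in control and 31.6% in CTCF siRNA had a partner at the same position. The cause of these changes was not tested. The control map is 3.35 times shallower, with 223 and 205 junction contacts, which sets the width of its intervals.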
